A study of Homo sapiens with 3 samples.

Results

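The small nuclear RNA (snRNA) genes described here encode the short RNAs at the core of the spliceosome, together with the U7 RNA of histone messenger RNA processing. They were chosen by annotation: RefSeq genes of biotype snRNA on chromosomes 1 to 22 and X whose symbol begins with RNU or RNVU. Of 59098 RefSeq genes on these chromosomes, 41 met this rule, and RNU2-63P was left out because its symbol marks a pseudogene, so 40 genes were followed. The set was proposed with peak scores of these same libraries already known. The peaks and score ranks given below are therefore a description of these genes, not a test of them.

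Splicing removes introns from messenger RNA precursors, and each snRNA works in it as part of a protein particle. U1 recognises the 5′ splice site, U2 the branch point, and U4, U5 and U6 join as a preassembled unit to form the catalytic spliceosome. U11, U12, U4atac and U6atac, with U5, do the same for the rare class of minor introns, while U7 guides the cutting of histone messenger RNA ends. Most of these genes are transcribed by RNA polymerase II, whereas U6 and U6atac are transcribed by RNA polymerase III. Promoters of both classes share a proximal sequence element, bound by the SNAPc complex, and often a distal octamer, bound by OCT1 (the product of POU2F1). A TATA box beside the proximal element directs the gene to RNA polymerase III.

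The peaks came from chromatin immunoprecipitation and sequencing (ChIP-seq) with an antibody against IRF3, a transcription factor activated when cells sense foreign nucleic acid. The cells were BT549, an established basal-like human breast cancer line, which stably expressed Cas9 and a guide RNA from a lentivirus and had received polyI:C by transfection, a synthetic mimic of viral double-stranded RNA, with no other stimulation labelled. The groups were control gRNA, Smad3 gRNA 1 and Smad3 gRNA 2, here called control, guide 1 and guide 2, with 1 library each, and the titles of the guide samples name BT549-caSmad3 cells where the control title names BT549. The sources used here do not say whether the cells were single clones, and a library without polyI:C, without antibody or from input chromatin was not analysed here. So no difference between groups had a replicate, none was tested, and whether a peak depends on IRF3 or on polyI:C was not tested.

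The control list held 18028 peaks, that of guide 1 16811 and that of guide 2 19609, with median widths of 396, 406 and 424 bp on genome build hg38. They give no read counts, so the depth is unknown. Each peak has an authors' score of unstated scale, used here only as a percentile, the share of peaks of the same list with a lower score. Lists of different length give percentiles that are set side by side and not read as a change. As a check on the cell label, 7 of 8 genes typical of mesenchymal basal-like lines (VIM, CD44, CAV1, FN1, SPARC, AXL and CCN2, without TGFBI) had a peak within 500 bp of a gene end in every list. Of 8 luminal breast genes, ERBB3 and XBP1 had one in every list, and ESR1, GATA3, FOXA1, CDH1, EPCAM and KRT19 had none in any. Of all protein-coding genes 44.9%, 41.6% and 44.0% had one in control, guide 1 and guide 2, each list by itself. The Wilson 95% interval of the luminal count, 7.15% to 59.1%, holds these shares, and that of the mesenchymal count was 52.9% to 97.8%. Genes are not replicates and neither count was tested, so neither set is read as set apart from other genes.

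Nearly every snRNA gene transcribed by RNA polymerase II lay at least partly under a peak of the anti-IRF3 libraries. Of these 34 genes, 22, 20 and 21 had a peak at or above percentile 95 of the control, guide 1 and guide 2 lists, while some U1 variants had peaks near the bottom. The 6 genes transcribed by RNA polymerase III had peaks of middle or low rank, mostly beside the gene, or none. Marked here means that the gene span, or the 500 bp on either side, was touched by a peak. In control 36 of the 40 genes were marked (90.0%, Wilson 95% interval 76.9 to 96.0), and in guide 1 and guide 2 34 were (85.0%, 70.9 to 92.9 in each). The marked share of all RefSeq genes was 24.9%, 23.4% and 24.9% (here and below in the order control, guide 1, guide 2). Those genes are mostly longer, so other genes of at most 300 bp, without pseudogenes, were also counted, and 7.59%, 6.29% and 7.01% of these 4007 genes were marked. All intervals cover counting error over genes, which are not replicates.

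**Figure D1:**
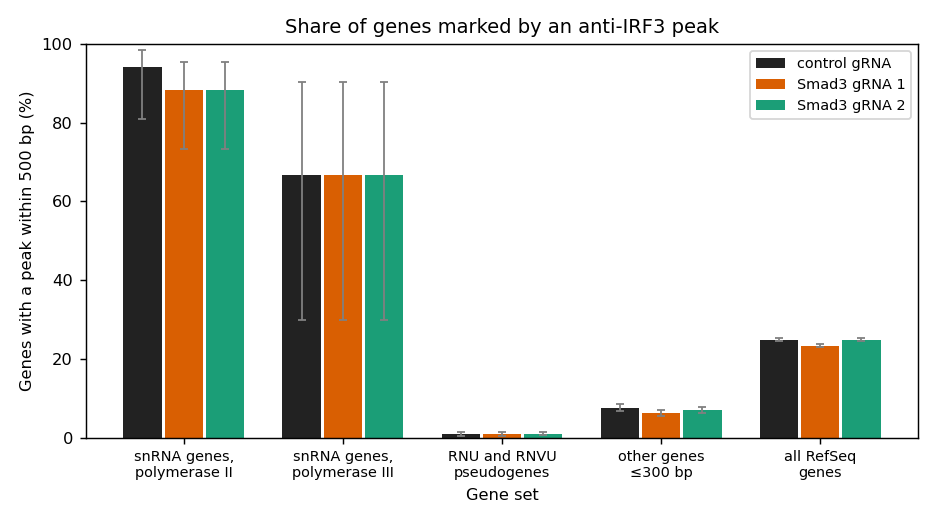
Share of genes with a peak within 500 bp of the gene span (vertical axis, percent) in 5 gene sets and 3 libraries; bars are shares and error bars Wilson 95% intervals. Polymerase II snRNA genes stand at 94.1% in control and 88.2% in both guides, and the RNU and RNVU pseudogenes under 1%.

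Of the 34 polymerase II genes, 32 were marked in control (94.1%, 80.9 to 98.4) and 30 in each guide library (88.2%, 73.4 to 95.3). The median percentile of the strongest peak was 97.2, 97.1 and 97.4. Of the 6 polymerase III genes, 4 were marked in each library (66.7%, 30.0 to 90.3), with medians of 55.0, 50.2 and 53.2. The other genes of at most 300 bp that were marked had medians of 75.3, 79.0 and 77.5. In control they included 78 of 443 transfer RNA genes, another polymerase III class, 138 of 1911 microRNA genes and 37 of 1196 small nucleolar RNA genes. They also included 19 of 113 genes of biotype snRNA outside the set, among them the row beside RNU2-1 described below. The values of the other small genes thus come in part from snRNA genes. A peak at or above percentile 95 lay at 22, 20 and 21 polymerase II genes and at 0 polymerase III genes in every list. Among the other small genes this held for 1.82%, 1.67% and 1.80%. With peaks required to overlap the gene itself, the number of marked polymerase III genes fell from 4 to 1 in every list, while that of polymerase II genes did not change. With the 10 genes inside or within 2 kb of a protein-coding gene left out, 30 genes remained. Among them 24, 22 and 22 polymerase II genes were marked, and 2 polymerase III genes in every list. Both counts fell because marked genes of both classes were among those left out.

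**Figure D2:**
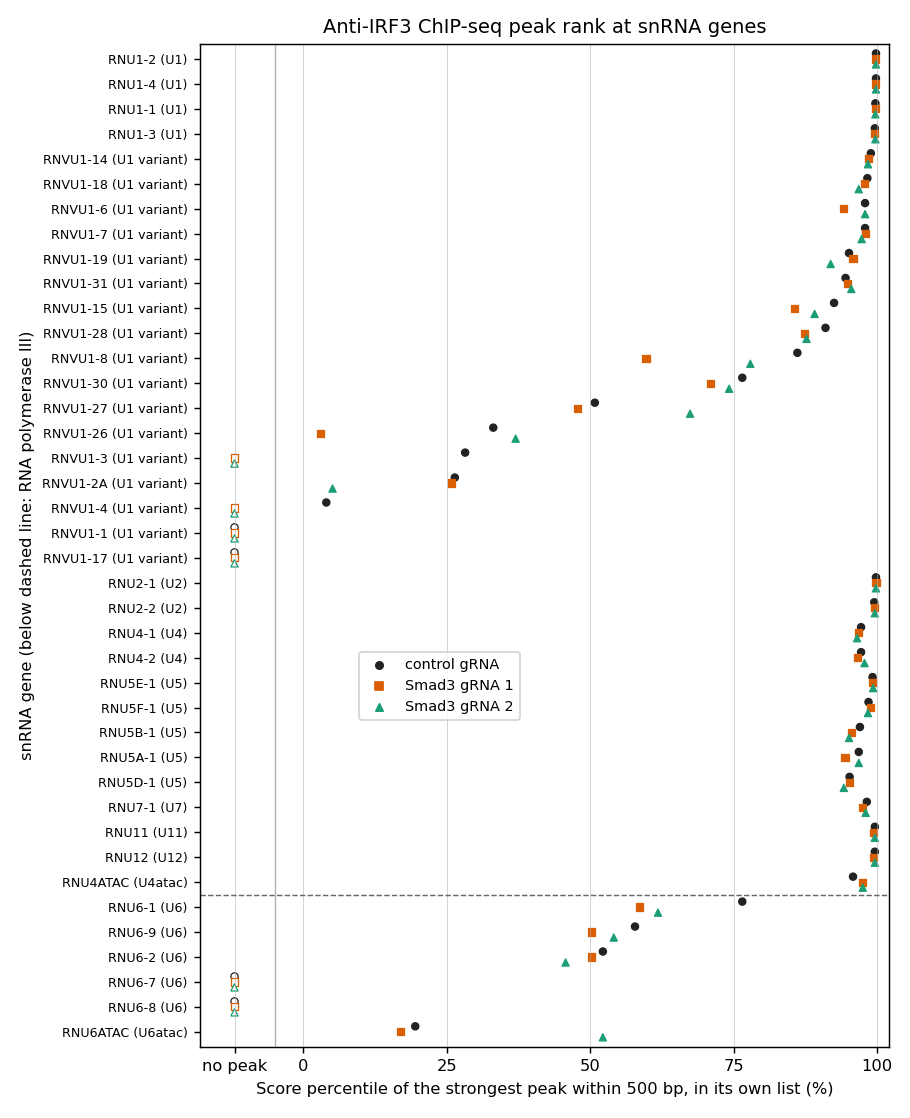
Score percentile of the strongest peak within 500 bp (horizontal axis, percent) for each of the 40 snRNA genes (rows, by RNA type), with 1 symbol per library and open symbols for no peak. The U1, U2, U4, U5, U7, U11, U12 and U4atac genes sit at 94.2 or higher in every list, the U1 variants spread from 3.0 to 98.9, and no U6 or U6atac gene passes 76.5.

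The position of the peak also differed between the classes. The strongest peak enclosed the whole gene at 28, 28 and 27 polymerase II genes and overlapped every marked one. In control this enclosing share was 82.4%, against 2.92% of the other genes of at most 300 bp, and their shares in guide 1 and guide 2 were 2.27% and 2.57%. For those other genes any single peak that enclosed the gene counted, not only the strongest. At polymerase III genes the peak enclosed 1 gene, RNU6-1, and lay beside the other 3 marked genes in every list. The median distance between the middles of peak and gene was 131, 101 and 91 bp for polymerase II genes and 429, 424 and 394 bp for polymerase III genes. These medians cover only the marked genes, and the window sets an upper limit to the distance.

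**Figure D3:**
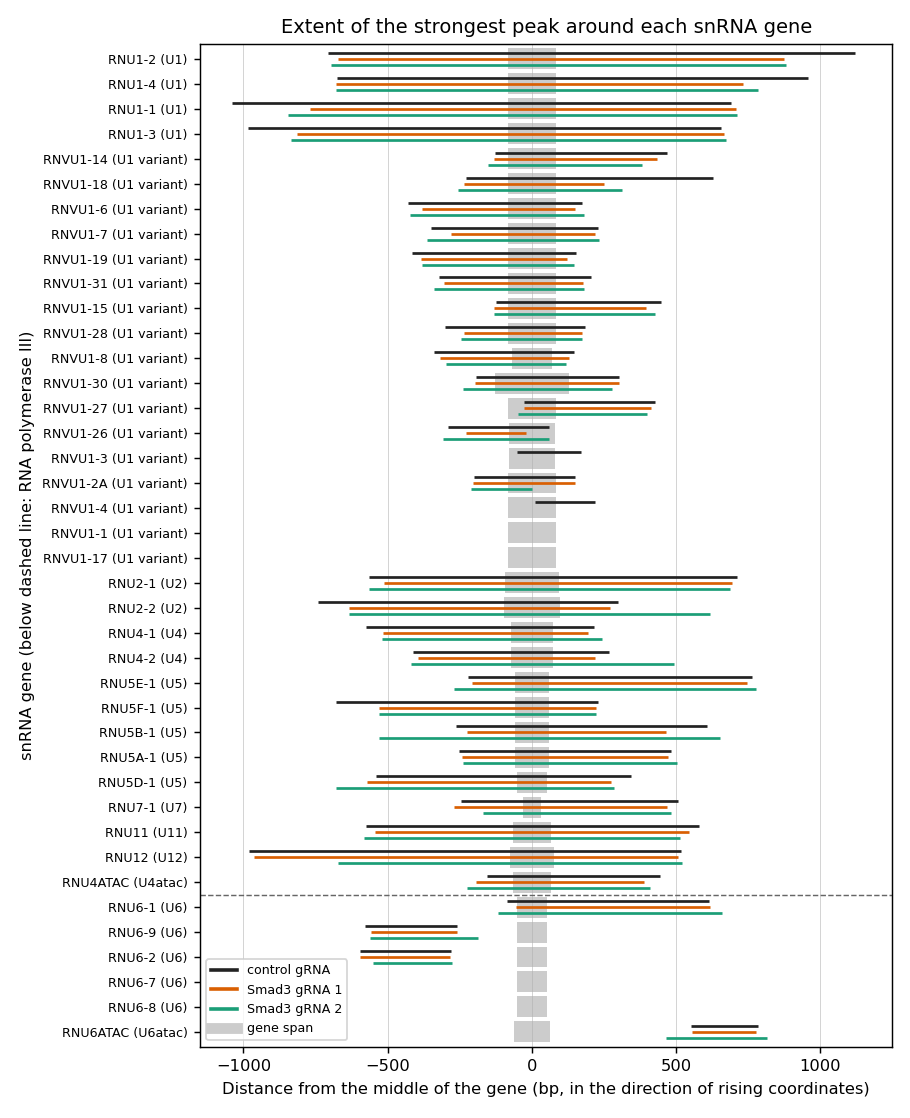
Extent of the strongest peak in each library (coloured lines) around each snRNA gene (grey box), in bp from the middle of the gene along rising coordinates. Peaks at polymerase II genes enclose or overlap the gene, whereas those at RNU6-9, RNU6-2 and RNU6ATAC lie beside it.

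Promoter sequences of RefSeq (GRCh38) were matched by symbol, and 0 of the 40 genes matched. Control peaks of 6 snRNA genes, however, reached into promoter windows of neighbouring genes, and 4 of these windows are shown because each holds an snRNA gene or an element named above beside one. Each run is the 250 bases before the start of the neighbouring gene, 5′ to 3′ on that gene's strand. The C12orf57 window (chr12:6943772-6944021, plus strand) lay wholly inside the RNU7-1 peak of every list, and its capitals mark the U7 gene itself. In the MED16 window beside RNU6-9 (chr19:893188-893437, minus strand) and the SIRT4 window beside RNU4-2 (chr12:120291939-120292188, plus strand), capitals mark an octamer. In the window of LOC105379574 beside RNVU1-2A (chr1:144551965-144552214, plus strand), capitals mark a match to the core of the proximal sequence element on the other strand.
C12orf57: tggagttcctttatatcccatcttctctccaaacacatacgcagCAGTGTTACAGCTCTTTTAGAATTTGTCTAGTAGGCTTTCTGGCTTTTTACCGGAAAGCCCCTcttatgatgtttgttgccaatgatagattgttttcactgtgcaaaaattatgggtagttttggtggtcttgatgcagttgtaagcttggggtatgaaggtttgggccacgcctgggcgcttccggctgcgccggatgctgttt
MED16: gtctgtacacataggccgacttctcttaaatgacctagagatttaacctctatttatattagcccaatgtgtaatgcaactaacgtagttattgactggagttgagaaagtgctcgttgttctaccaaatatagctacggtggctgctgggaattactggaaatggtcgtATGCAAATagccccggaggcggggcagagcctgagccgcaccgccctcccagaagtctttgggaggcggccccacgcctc
SIRT4: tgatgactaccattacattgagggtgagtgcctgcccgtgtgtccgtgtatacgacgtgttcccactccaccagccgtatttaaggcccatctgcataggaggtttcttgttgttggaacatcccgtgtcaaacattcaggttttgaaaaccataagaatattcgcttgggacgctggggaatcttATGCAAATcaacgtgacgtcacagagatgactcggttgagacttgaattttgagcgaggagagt
LOC105379574: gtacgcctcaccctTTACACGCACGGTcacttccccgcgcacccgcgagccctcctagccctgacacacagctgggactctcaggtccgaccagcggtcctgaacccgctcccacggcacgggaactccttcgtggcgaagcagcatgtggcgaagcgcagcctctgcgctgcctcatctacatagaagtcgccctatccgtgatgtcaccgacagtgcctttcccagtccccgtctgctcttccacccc

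The octamer ATTTGCAT, searched on both strands, lay in the MED16 window 217 bp from RNU6-9 and inside the RNU6-9 peak of every list. In the SIRT4 window it lay 222 bp from RNU4-2, inside the guide 2 peak and outside the control and guide 1 peaks. It occurred in 1.77% of all 35116 promoter windows of 300 bases. The core of the proximal sequence element (ACCG, 4 bases of any kind, T, 2 of any kind, AA) lay 36 bp from RNVU1-2A, inside the control and guide 1 peaks and outside the guide 2 peak, and occurred in 1.02% of windows. The TATA letters TATANA occurred in 19.0% of windows, among them those of C12orf57, SIRT4 and MED16. The matches lay 30 bp from RNU7-1 and 82 bp from RNU4-2, both polymerase II genes, and 99 bp from RNU6-9. None lay in a window with a match to the proximal element. The interferon-stimulated element (GAAA, 2 bases of any kind, GAAA), the usual recognition core of IRF proteins, was in none of these 4 windows, nor in those of TMEM259 beside RNU6-2 and of POLDIP3 and LOC124905127 beside RNU12, and occurred in 3.57% of all. The AP-1 motif TGANTCA and the ZNF143 core (CCCA, 1 base of any kind, AATGC) were also in none of the 7 (7.71% and 0.646% of all windows). Among these 7 windows the octamer was only in those of MED16 and SIRT4, and the proximal element only in that of LOC105379574. Those of TMEM259, POLDIP3 and LOC124905127 held none of the motifs searched. The 4 windows shown were picked for what they hold and do not stand for the 7. CAGAC, the letters of the SMAD element, was in those of LOC105379574, SIRT4 and MED16 and in 45.3% of all windows. These matches describe the letters only.

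The 4 U1 genes on chromosome 1, RNU1-1 (16514122 to 16514285), RNU1-2 (16895980 to 16896143), RNU1-3 (16666785 to 16666948) and RNU1-4 (16740516 to 16740679), carried some of the widest and strongest peaks of each list. RNU1-4 had an authors' score of 319.4 in control, 250.9 in guide 1 and 263.1 in guide 2, above 99.8%, 99.7% and 99.8% of the lists, and ranked 40, 48 and 45. RNU1-2 scored 308.1, 253.5 and 269.3 and ranked 45, 45 and 42. RNU1-1 scored 294.2, 235.6 and 251.1 and ranked 50, 56 and 53. RNU1-3, the lowest of the 4, scored 269.0, 225.3 and 231.4 and ranked 64, 61 and 63. The order RNU1-3, RNU1-1 and then the other pair held in every list, with RNU1-2 above RNU1-4 in the guide lists and below it in control. Their peaks were 1412 to 1828 bp wide around genes of 164 bp, with width percentiles of 99.3 to 99.7. The nearest protein-coding gene lay 5558 to 67004 bp away, so these peaks were not at a protein-coding promoter. The U1 copies are nearly identical and could share reads, and no source used here says how the authors placed such reads.

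The 17 U1 variant genes (RNVU1), which lie further along chromosome 1 and encode RNAs close to U1, ranged from the top of the lists to no peak. In control 15 were marked, and 13 in each guide list, with median percentiles of 91.0, 87.3 and 89.1. RNVU1-14 had the highest control percentile, with scores of 164.3, 123.9 and 131.8 above 98.9%, 98.5% and 98.4% of the lists. RNVU1-18 reached percentiles 98.3, 97.8 and 96.8, RNVU1-7 97.9, 98.0 and 97.3, and RNVU1-6 97.9, 94.2 and 97.9. At the low end of those marked in every list, RNVU1-26 stood at 33.1, 3.0 and 37.0, and RNVU1-2A at 26.4, 25.8 and 5.09. RNVU1-8, in the middle of the range, stood at 86.1, 59.7 and 77.9.

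The only snRNA genes whose marking differed between the libraries were RNVU1-3 and RNVU1-4, both with a peak in control alone. The RNVU1-3 peak (148402743 to 148402964) covered 82.6% of the gene and scored 31.1, above 28.2% of the control list. The RNVU1-4 peak (120942694 to 120942901) covered 42.7% of the gene and scored 21.2, above 4.0% of the list. In the guide lists the nearest peak to RNVU1-3 was 13553 and 13464 bp away, and to RNVU1-4 91575 and 91551 bp. RNVU1-1 and RNVU1-17 had no peak in any list, and their nearest peaks lay 26232 to 26356 bp and 29613 to 29640 bp away. Of the 40 genes, 34 were marked in every list, 2 in control alone and 4 in none. The shares of all RefSeq genes marked in every list or in control alone were not counted. Whether 2 of 40 is usual is therefore unknown, and it is not read as a loss in the guide libraries.

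Of the U2 genes, RNU2-1 had peaks as high in the lists as those of U1, and RNU2-2 ranked below all 4 U1 genes in every list. RNU2-1 (chromosome 17, 43233790 to 43233977) had the highest score of the 40 genes in control, 322.0, and scored 268.3 in guide 1 and 262.1 in guide 2. It ranked 39, 34 and 46, above 99.8% of each list, with peaks 1206 to 1275 bp wide. RNU2-2 (chromosome 11, 62841619 to 62841809), which lies inside the span of WDR74, scored 211.4, 193.1 and 204.6, with ranks of 93, 72 and 77, above 99.5%, 99.6% and 99.6% of the lists. In control its peak reached 645 bp beyond the low end of the gene and 203 bp beyond the high end, and in guide 2 538 and 523 bp.

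Beside RNU2-1, a row of 13 snRNA-biotype genes with LOC symbols, outside the set by name, held peaks of which most were near the top of each list. They lay 5944 to 133922 bp from RNU2-1 and are 189 to 192 bp long, and the human U2 genes are known to form a tandem array on this chromosome. All 13 were marked in every list, each by a peak of its own, with median percentiles of 99.87, 99.85 and 99.87. The lowest, at LOC124904147, the gene farthest from RNU2-1, stood at 94.9, 89.2 and 95.4. Among the 20 highest-scoring peaks of the lists, 4, 4 and 3 belonged to this row, and none to the 40 genes. Of all 84 LOC-named snRNA genes 18 were marked in each library (21.4%, 21.4% and 21.4%), and 13 of the 18 were this row. They count among the other small genes above. Near-identical copies in an array can also share reads.

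**Figure D4:**
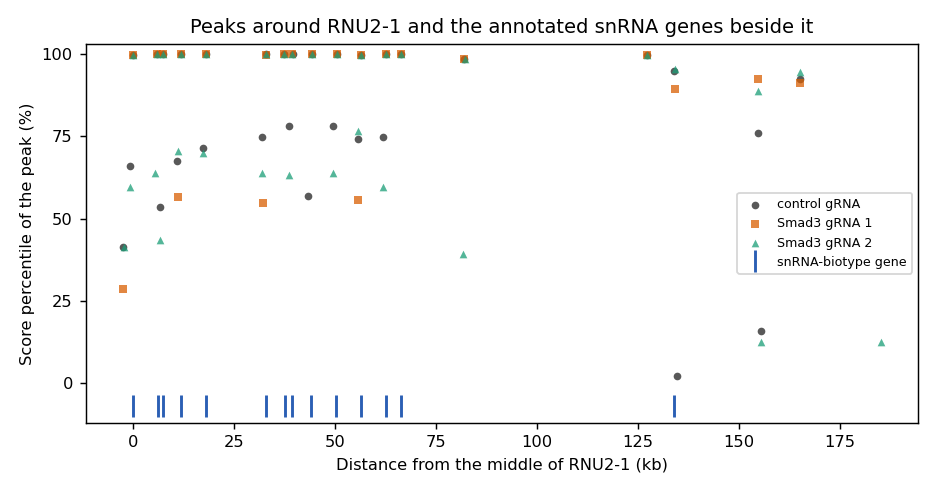
Score percentile (vertical axis, percent) of peaks around RNU2-1 in each library, by distance from its middle (kb), with the snRNA-biotype genes as ticks below. Peaks at or above 99.7 stand at RNU2-1 and at each of the next 12 genes, and 2 further positions without an annotated snRNA gene also hold high peaks in every list.

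U4 and U5 genes, whose RNAs enter the spliceosome together with U6, were marked in every list and enclosed by their peaks. RNU4-1 (chromosome 12, 120293093 to 120293237) scored 125.2, 101.4 and 107.3, above 97.2%, 96.8% and 96.5% of the lists. RNU4-2 (120291759 to 120291903), the U4 copy beside it, scored 125.2, 99.9 and 121.7, above 97.2%, 96.6% and 97.8%. Both lie inside the annotated span of SIRT4, and each had a peak of its own. Of the 5 U5 genes, RNU5E-1 (chromosome 1, 11908152 to 11908272) was highest, with scores of 182.2, 149.5 and 162.0 above 99.2%, 99.2% and 99.3% of the lists. RNU5F-1 followed with percentiles of 98.5, 98.8 and 98.4. RNU5B-1 stood at 97.0, 95.5 and 95.1 and RNU5A-1 at 96.8, 94.4 and 96.8. RNU5D-1 was the lowest in control and guide 2, at 95.2, 95.2 and 94.2. The peaks of RNU5E-1 reached 161, 146 and 211 bp beyond the low end of the gene and 704, 685 and 718 bp beyond the high end.

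The U7 gene and the polymerase II genes of the minor spliceosome were likewise marked in every list. RNU7-1 (chromosome 12, 6943816 to 6943878), inside the span of C12orf57, scored 145.1, 109.1 and 123.1, above 98.2%, 97.5% and 98.0% of the lists. RNU11 (chromosome 1, 28648600 to 28648734) encodes the RNA that recognises the 5′ splice site of minor introns, and it scored 233.9, 171.0 and 203.6, above 99.6%, 99.4% and 99.6%. RNU12 (chromosome 22, 42615244 to 42615393), whose RNA pairs with the minor branch point, scored 224.6, 172.6 and 208.0, above 99.6%, 99.4% and 99.6%. RNU4ATAC (chromosome 2, 121530880 to 121531009), inside CLASP1, scored 110.7, 108.6 and 117.9, above 95.8%, 97.4% and 97.5%. RNU11 lies 331 bp from TAF12 and RNU12 361 bp from POLDIP3. The RNU11 peaks reached at least 448 bp and the RNU12 peaks at least 432 bp beyond either end of the gene. In every list they therefore also covered the nearer end of that protein-coding gene, whose part in the peak was not tested. The RNU11 peak had its middle 1 bp from that of the gene in control and guide 1 and 34 bp in guide 2.

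The polymerase III gene of the minor spliceosome, RNU6ATAC (chromosome 9, 134164439 to 134164564), was marked only by a peak 490, 494 and 401 bp away from its span. That peak scored 27.8, 26.6 and 42.2, above 19.5%, 16.9% and 52.2% of the lists. It lay just inside the 500 bp limit, and no gene without a peak had one nearer than 13464 bp. Its partner in the same particle, U4atac, is a polymerase II gene and stood at 95.8 or higher.

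Among the 5 U6 genes, RNU6-1 (chromosome 15, 67839939 to 67840045) was the only one under a peak. It scored 61.0, 43.0 and 47.9, above 76.5%, 58.6% and 61.8% of the lists. The peak ended 34, 3 and 64 bp beyond the low end of the gene and 560, 566 and 605 bp beyond the high end, so nearly all of it lay on 1 side. RNU6-9 (chromosome 19, 893484 to 893590) had its peak 208, 207 and 134 bp away on the side of MED16, whose span begins 297 bp from it, with percentiles of 57.8, 50.2 and 54.1. RNU6-2 (chromosome 19, 1021522 to 1021628) had its strongest peak 227, 231 and 225 bp away on the side of TMEM259, whose span lies 399 bp from it, with percentiles of 52.2, 50.2 and 45.7. These 2 peaks overlapped the promoter windows of MED16 and TMEM259, and the part of those genes in them was not tested. RNU6-7 (32202045 to 32202151) and RNU6-8 (32203163 to 32203269), neighbours on chromosome 14, had no peak, and the nearest in any list was 405693 bp away. U6 copies are nearly identical inside the gene, and no source used here says whether reads that map to several copies were kept.

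The polymerase II genes had wide peaks, with a median width of 709, 652 and 697 bp, wider than 87.8%, 83.8% and 84.8% of the lists at the median. The polymerase III genes had medians of 318, 306 and 363 bp. The 13 polymerase II genes other than U1 and its variants were all marked and all enclosed, with median percentiles of 98.2, 97.5 and 98.0 and a range of 94.2 to 99.8 over the lists. Of the 34 genes marked in every list, 24 had percentiles within 5 points over the lists. The median range of the 34 was 1.35 points. Percentiles near the top of a list have little room to differ: RNU1-1 had a range of 0 points with scores of 294.2, 235.6 and 251.1. Ranges of other genes were not computed. Among the 34 genes the widest ranges were those of RNU6ATAC (16.9 to 52.2), RNVU1-26 (3.0 to 37.0), RNVU1-8 (59.7 to 86.1) and RNVU1-2A (5.09 to 26.4). With 1 library per group these ranges cannot be divided into differences between groups and differences between libraries.

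**Figure D5:**
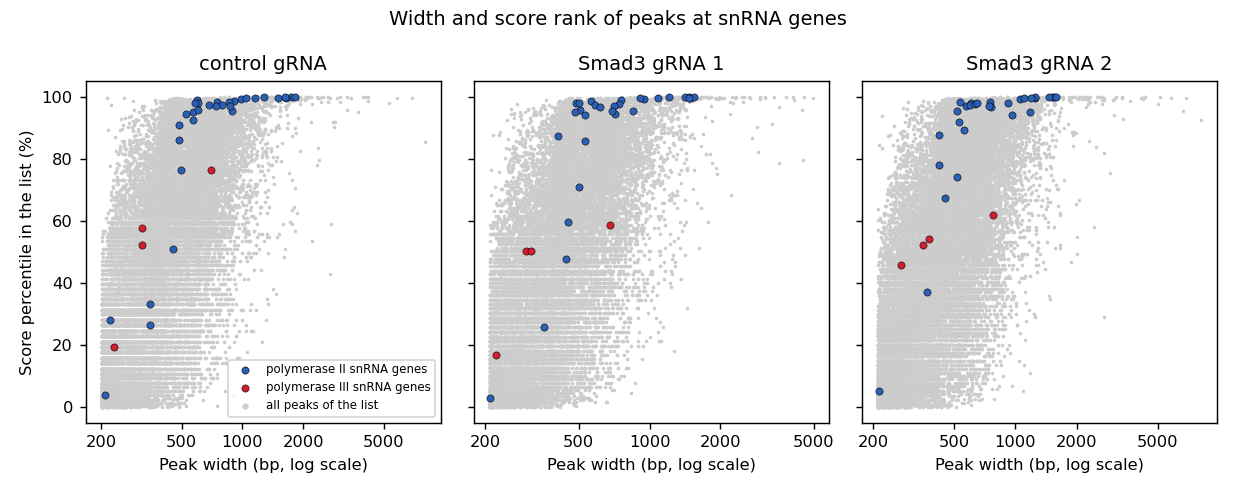
Width (horizontal, bp, log scale) against score percentile (vertical, percent) of all peaks of each list (grey) and of the strongest peaks at polymerase II (blue) and polymerase III (red) snRNA genes. The blue points crowd at high percentile and larger width, with medians of 709, 652 and 697 bp, and the red points lie at or below 76.5.

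Few pseudogenes of the same families were marked, with shares that differed between families. Of 1802 genes of a pseudogene biotype named RNU or RNVU, 15, 15 and 17 had a peak within 500 bp (0.832%, 0.832% and 0.943%). Among the 1270 U6 pseudogenes 3, 3 and 5 were marked, or 0.236% (0.0804 to 0.692), 0.236% (0.0804 to 0.692) and 0.394% (0.168 to 0.918). Of the 8 U1 variant pseudogenes 3 were marked in every list (37.5%, 13.7 to 69.4), and of the 29 U5 pseudogenes 3 (10.3%, 3.58 to 26.4). The U6 pseudogenes make up most of the 1802 and so set most of the overall share. The genes and the pseudogenes were not matched for position or for how well reads map to them. The 4 pseudogenes at or above percentile 95 belonged to polymerase II families and were enclosed by their peaks in every list. RNU1-27P and RNU1-28P (chromosome 14, 34546714 to 34546877 and 34556226 to 34556389) were as high as the U1 genes, with scores of 349.9, 261.7 and 270.2 and of 319.4, 253.0 and 264.0. RNU5E-4P, of the U5 family, stood at 99.0, 98.9 and 99.1. These 3 were chosen after their values were seen.

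Nearly all genes that make and use snRNAs had a peak at 1 or the other gene end, at lower median ranks than the polymerase II snRNA genes. Without strand, the start and the end of a gene were not told apart. Of 52 genes of snRNA transcription and processing, the same 50 had a peak within 500 bp of a gene end in each list. Of all protein-coding genes 44.9%, 41.6% and 44.0% had one in the control, guide 1 and guide 2 lists. The share of protein-coding genes marked in every list was not counted. The 50 genes had median percentiles of 74.7, 73.7 and 74.4, against 70.6, 67.4 and 69.8 for all protein-coding genes so marked. Subunits of one complex differed widely, and the genes named here were chosen after their values were seen. In SNAPc, SNAPC3 stood at 96.0, 97.3 and 97.5, SNAPC1 at 75.9, 67.4 and 79.9, and SNAPC4 at 65.2, 51.4 and 59.6. SNAPC2 stood at 39.6, 50.2 and 41.4 and SNAPC5 at 39.6, 12.7 and 21.5. POU2F1 stood at 90.3, 88.2 and 91.6. BRF2, the TFIIB-related factor of polymerase III at U6 promoters, stood at 91.6, 89.2 and 88.3. POLR2A, the gene of the largest polymerase II subunit, stood at 99.7, 99.6 and 99.7 and POLR3A, its polymerase III counterpart, at 91.6, 79.0 and 84.4. INTS6, of the Integrator complex that cuts polymerase II snRNA ends, stood at 99.3, 98.8 and 99.4, whereas INTS4 and INTS1 of the same complex stood at 24.6, 33.3 and 58.8 and at 45.8, 25.8 and 20.2. MEPCE, the capping enzyme of 7SK RNA, stood at 98.5, 99.1 and 99.5. The 2 genes without a peak were SP1 and GEMIN4.

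Of 52 genes of snRNP proteins, the proteins bound to snRNAs, 50 were marked in every list, with median percentiles of 76.8, 75.7 and 79.5. The same rule marked 44.9%, 41.6% and 44.0% of all protein-coding genes, each list by itself, with medians of 70.6, 67.4 and 69.8. SF3B4, of the U2 particle, was highest in control at 98.3. PRPF4, of the U4 and U6 particle, stood at 97.2 there, and SNRPB, of the Sm ring shared by polymerase II snRNAs, at 96.1. SNU13 and LSM11 had no peak in any list. At or above percentile 95 were 4, 3 and 4 of these 52 genes. Among the 52 transcription and processing genes, 5, 6 and 6 were. The snRNA genes, with 22, 20 and 21 of 40, were marked by the gene span and not by gene ends, so the counts are not alike. The share of all protein-coding genes at or above percentile 95 was not counted.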

How the data were processed

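The members and gene lists were chosen with earlier results of these data known. The authors deposited 1 peak list per library, each with positions and a score of unstated scale. Bowtie2 2.2.2.6, MACS2 2.1.0 and build hg38 are listed per the submitters' processing notes, with neither role nor setting. The sources used here do not give the treatment of duplicates or of reads that map to several places.

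Genes came from RefSeq on GRCh38, as 1 span per gene without strand or exons. Peaks within 500 bp of a span were assigned with pandas 2.3.3 and scipy 1.17.1, in code tested on simulated data, and the strongest peak per gene was kept. With 1 library per group no test was made, and Wilson 95% intervals cover counting error only. Described in full were, per RNA type, up to 4 members with the highest control percentile, every member whose marking differed between libraries, and members sharing a peak (none did). Sequences were to come from the promoters of these members. None was in the table, and neighbouring windows were chosen after the peaks were seen. Alternatives were windows of 0 bp and 2 kb, peak midpoints, peaks at or above the list median, equal list lengths, shared peaks counted once, genes near protein-coding genes left out and, added after seeing the data, RNU2-63P kept. The values of 1 of the 4 pseudogenes at or above percentile 95 are not reported here.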

Additional observations from a re-analysis of the deposited data

How the results depend on the processing

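No alternative reversed the order of the polymerase classes. Requiring overlap with the gene left 1 marked polymerase III gene in every list, RNU6-1, at percentiles 76.5, 58.6 and 61.8 (control, guide 1, guide 2). Leaving out genes within 2 kb of a protein-coding gene kept 30 genes. Among them 24, 22 and 22 polymerase II genes were marked, and 2 polymerase III genes per list. The medians were 96.0, 95.3 and 96.1 for polymerase II and 48.0, 37.7 and 57 for polymerase III. Peaks at or above the list median gave 97.9, 97.5 and 97.7 for polymerase II and, for polymerase III, 57.8 in control and 54.1 in guide 2, as did peak midpoints within 500 bp for polymerase III. Lists of equal length gave polymerase III medians of 51.7 in control and 45.4 in guide 2, and 97.1 for polymerase II in guide 2. A 2 kb window gave 97.7 for polymerase II in guide 2, and keeping RNU2-63P 96.8 in guide 1. All other counts of marked genes stayed within 1.5 times the reported ones. No paired analysis was possible because each group holds 1 library. Depth is unknown, so a missing peak does not show that signal was absent.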

Other observations

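RNU2-63P, the gene left out for its pseudogene symbol (chromosome 2, 88016358 to 88016547), was enclosed by a peak in every list, at percentiles 88.6, 90.2 and 94.6. Of the U1 variants, RNVU1-19, RNVU1-15, RNVU1-14 and RNVU1-27 each lay at nearly the same distance (8590, 8650, 8621 and 8620 bp) from an NBPF gene (NBPF26, NBPF15, NBPF20 and NBPF14). Their control percentiles were 95.1, 92.5, 98.9 and 50.8, chosen after the values were seen. Whether reads were divided among such copies was not tested. Away from the row beside RNU2-1, 5 of 71 LOC-named snRNA genes were marked in every library. The marked share of other RefSeq genes of at most 300 bp was 7.59%, 6.29% and 7.01%. The count of 5 is close to that share and is not read as a trait of these genes. The highest of the 5 in control was LOC124904613 on chromosome 1, a gene of 164 bp, at percentiles 99.60, 99.51 and 99.50.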
